A study of Rattus norvegicus with 12 samples.

Results

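The genes described are those for the subunits of oxidative phosphorylation, taken from the array platform's own annotation: probe sets with a single symbol for a subunit of complex I (Nduf names), complex II (Sdha to Sdhd), complex III (Uqcr names and Cyc1), complex IV (Cox4 to Cox8 names) or complex V (Atp5 names). The rule found 97 probe sets for 87 genes, out of 14218 genes with a single symbol, and each gene was represented by its brightest probe set. Because the rule goes by name, the 87 also hold 6 assembly factors of complex I (Ndufaf names), the supercomplex factor Cox7a2l, the ATP synthase inhibitor Atp5if1, the Ndufa4 paralog Ndufa4l2 and the pseudogene Cox6c-ps1. They are given apart from the subunits of each complex, but totals over all the genes include them. RNA from primary cultures of rat optic nerve head astrocytes was measured on 12 one-colour arrays. The 4 groups were cultures treated with EGF (epidermal growth factor) for 4 h, their sister cultures without EGF for the 4 h experiment, cultures treated with EGF for 12 h, and their sister cultures for the 12 h experiment, with 3 arrays in each. The EGF dose and the animals' strain and age were not given in the labels, and no label says whether replicates were separate cultures, so each p-value reflects only how far these samples spread, and that spread may be technical.

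Oxidative phosphorylation is carried out in the inner mitochondrial membrane. Complexes I and II pass electrons from NADH and succinate to ubiquinone, complex III passes them on to cytochrome c, and complex IV passes them to oxygen. Complexes I, III and IV pump protons, and complex V, the ATP synthase, uses the proton gradient to make ATP. Most subunits are encoded in the nucleus and imported, a few core ones are encoded by mitochondrial DNA, and assembly factors help to build the complexes without staying in them. Cultured astrocytes are known for a high rate of glycolysis beside this respiration.

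The deposited signals had been scaled to a common trimmed mean on every array. Arrays differed in 2 ways that touch the results. The replicate 3 arrays of EGF and of control at 4 h had mean signals of 25056 and 27553 on the added hybridisation controls, against 41.9 to 135 on the other 10 arrays. The actin 3′ to 5′ signal ratio, a measure of RNA and labelling quality, was 1.24 on the third EGF array at 12 h, against 18.1 and 20.5 on the other EGF arrays at 12 h, 11.1 to 21.7 on the 12 h controls and 1.20 to 1.61 on the 4 h arrays. Whether these arrays belong to separate processing runs is not stated. Among 11 astrocyte markers on the array, Vim and Gja1 passed the brightness filter with mean signals of 72429 and 67135, while Gfap (185), Aqp4, Slc1a2, Aldh1l1 and Fabp7 lay under it. Of the 6 that passed, none was called at 4 h and 2 were lower at 12 h, Glul (-1.28 ± 0.15) and Aldoc (-5.64 ± 0.64, log2 scale), and the summed signals of the list at 12 h were 138472 to 199354 with EGF and 147579 to 153894 in controls. Vim and Gja1 make up most of that sum, so it says little about the other markers. None of 8 neuronal markers passed the filter. Their summed signals were 1072 to 1327 with EGF and 942 to 1096 in controls at 4 h. At 12 h they were 1069 to 1818 with EGF and 388 to 826 in controls. Of 9 microglial markers 3 passed the filter, and 1 of these was higher at 12 h. The sums of this list were 885 to 1187 with EGF and 1300 to 1477 in controls at 4 h. At 12 h they were 1605 to 2467 with EGF and 905 to 1108 in controls. All 8 fibroblast and meningeal markers passed, and at 12 h 2 were higher and 5 lower, with summed signals of 209967 to 312285 with EGF and 278248 to 323911 in controls. Of 8 oligodendrocyte markers 4 passed, and Mbp, Cnp and Pdgfra were lower at both times, with sums of 4518 to 5469 with EGF and 9412 to 10030 in controls at 4 h, and 5715 to 7189 with EGF and 12692 to 13944 in controls at 12 h. Of 5 endothelial markers 1 passed the filter, Tek, which was lower at both times, with list sums of 1308 to 1670 with EGF and 2618 to 3024 in controls at 4 h, and 1110 to 1612 with EGF and 2499 to 3198 in controls at 12 h. The part of these markers in the subunit results was not tested. In whole cultures, fewer cells of a type and less RNA per cell cannot be told apart.

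Of the 87 genes, 81 had a mean signal over the 12 arrays above the brightness filter (the 40th percentile, a signal of 215) and were tested. All 34 complex I subunits, 6 complex I assembly factors, 4 complex II, 8 complex III and 15 complex V subunits passed, as did 11 of 16 complex IV subunits, Cox7a2l, Cox6c-ps1 and Atp5if1. The 6 genes under the filter were Cox4i2, Cox6a2, Cox6b2, Cox7b2, Cox8b and Ndufa4l2, which are tissue-restricted or stress-associated relatives of ubiquitous subunits. Their mean signals lay between 18.0 for Cox8b and 145 for Ndufa4l2. Their ubiquitous counterparts Cox4i1, Cox6a1, Cox6b1, Cox7b, Cox8a and Ndufa4 all passed the filter. Signals of different probe sets are not comparable, so no order of abundance is drawn from them.

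**Figure D1:**
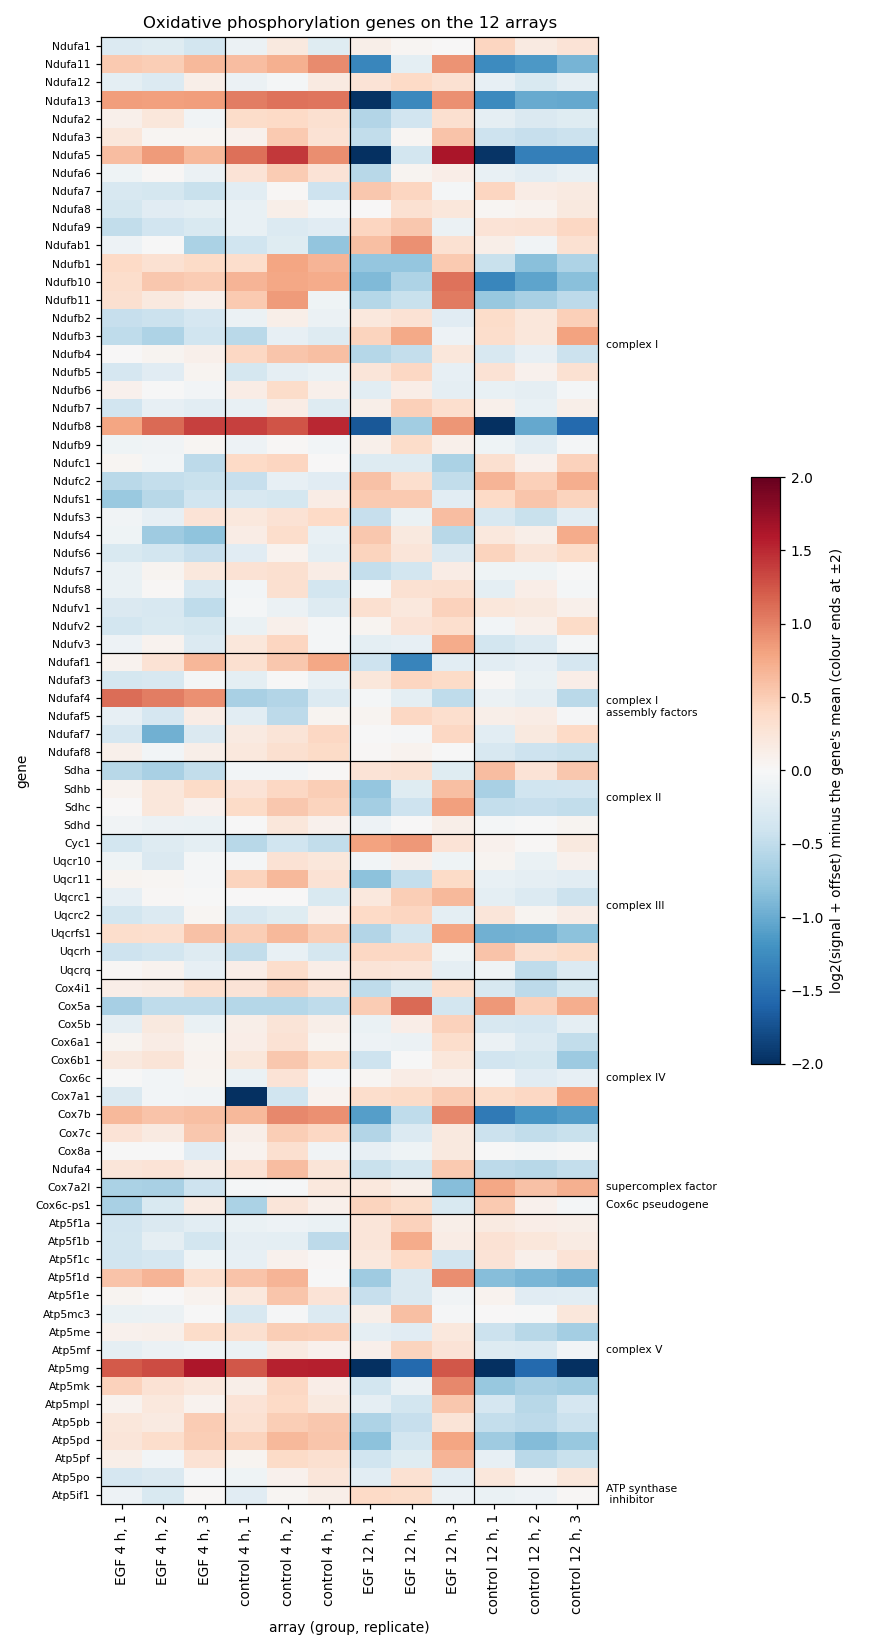
Signals of the 81 tested oxidative phosphorylation genes (rows, by complex) on the 12 arrays (columns, by group and replicate). Colour is log2(signal + 24.4) minus the gene's mean, red above and blue below it; Ndufaf4 is red on the EGF arrays at 4 h, and the third EGF array at 12 h resembles the 4 h arrays for genes such as Atp5mg, Ndufa5 and Ndufb8.

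After 4 h of EGF few of the tested genes, subunits and non-subunits counted together, passed the test. Of the 81 genes, 1 was higher and 2 were lower (3.7% in either direction), while 27.8% of all 18625 tested probe sets passed (11.4% higher, 16.5% lower). The gene that rose was the assembly factor Ndufaf4, and the 2 that fell were Sdha and the assembly factor Ndufaf7. The genes' median log2 fold change was -0.20, beside -0.15 for all tested probe sets, and 70 of the 81 values were negative (86.4%, against 61.4% of all). When each array was centred on its own median, the genes' median was -0.09 and 61 were negative, with the median of all probe sets moved by 0.11 to -0.04. The 3 EGF arrays lay below the 3 control arrays without overlap for 25 genes (30.9%, against 29.8% of all tested) and above them for 2 genes (2.47%, against 18.3%).

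The values were narrow. The 95% interval of the log2 fold change lay within -1 to 1, a 2-fold change either way, for 69 of the 81 genes (85.2%) at 4 h, against 51.5% of all tested probe sets, and the median standard error was 0.18 against 0.23. The count of lower genes rested on single arrays: it was 0 without the second EGF array at 4 h or without both replicate 3 arrays at 4 h, 1 without the third control at 4 h, 5 without the first EGF array at 12 h and 12 without the third EGF array at 12 h, since all 12 arrays share 1 estimate of the spread. Without the third EGF array at 12 h, 16% of the genes were called in either direction at 4 h, against 36.9% of all. Ndufaf4 was higher in all of these fits.

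After 12 h of EGF, 11 of the 81 genes were higher and 2 lower (16% in either direction), while 36.1% of all tested probe sets passed (15.3% higher, 20.8% lower). The higher genes were Ndufa12 and the assembly factor Ndufaf8 of complex I, Cyc1, Uqcrc1 and Uqcrfs1 of complex III, Cox5b and Cox7b of complex IV, and Atp5f1d, Atp5me, Atp5mf and Atp5mk of complex V. The lower genes were Ndufc1 of complex I and Cox7a2l. The median log2 fold change was 0.21, beside -0.06 for all tested probe sets, and 56 of 81 values were positive (69.1%, against 46.4% of all). With arrays centred on their medians 22 genes were higher and 2 lower (29.6%, against 35% of all), and the median was 0.31 beside 0.04 for all. The median of the genes minus that of all tested probe sets was 0.27, and over the alternatives it ran from 0.11 under quantile normalization to 0.33 without the first EGF array.

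Single arrays moved the 12 h counts. The number of higher genes was 24 without the first EGF array at 12 h, 7 without the first or the second control and 6 without the third control. Without the first EGF array 34.6% of the genes were called in either direction, against 38.9% of all tested probe sets. The number of lower genes was 4 without the first EGF array, 5 without the third EGF array and 1 without the third control. Without the third EGF array, 13 genes were higher: Cox5b and Atp5f1d no longer passed, and Ndufab1, Ndufb9, Uqcrq and Atp5if1 did. Of the 13 genes called with all arrays, 11 were still called. The EGF arrays lay above all controls for 15 genes (18.5%, against 19.7% of all tested) and below them for 3 (3.7%, against 28.3%). In the main fit no gene was called at both times, as the 3 genes called at 4 h and the 13 called at 12 h made 16 different genes. In some alternatives Sdha and Cox7a2l were called lower at both times.

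**Figure D2:**
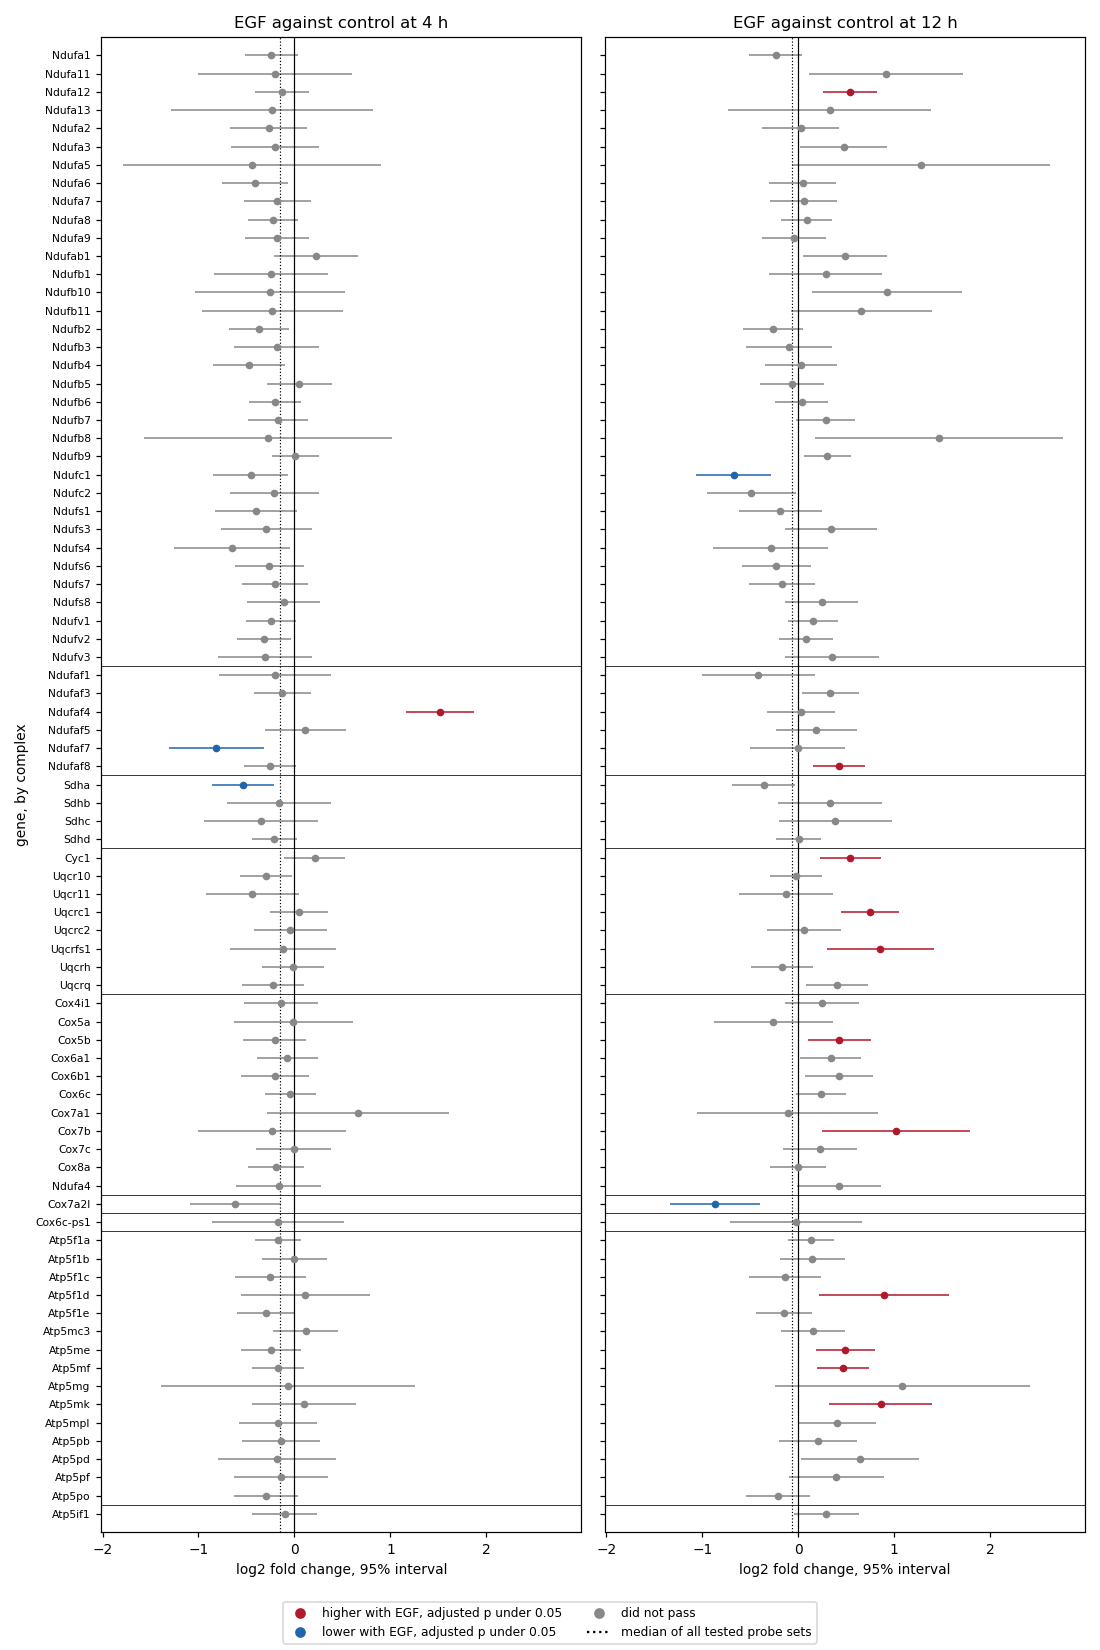
Log2 fold change of EGF over control with its 95% interval for each of the 81 tested genes, by complex, at 4 h (left) and 12 h (right); red and blue points passed an adjusted p of 0.05 as higher or lower, grey ones did not, and the dotted line is the median of all tested probe sets. Most 4 h values lie just left of 0 and most 12 h values right of it, with Ndufaf4 at 1.52 standing alone at 4 h.

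**Figure D3:**
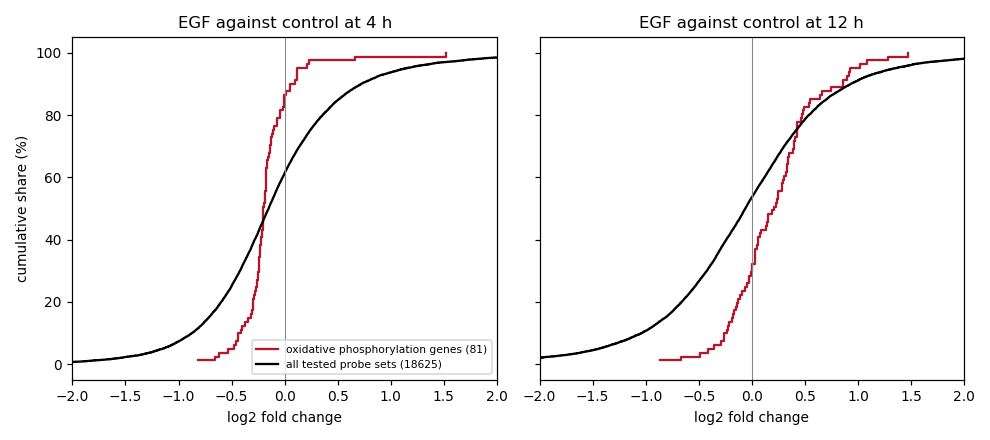
Cumulative share of log2 fold changes at 4 h (left) and 12 h (right) for the 81 genes (red) and all 18625 tested probe sets (black), drawn from -2 to 2. The red curve is steeper at both times, and at 12 h it lies to the right, with medians of 0.21 and -0.06.

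Promoter sequence was available for 78 of the 87 genes in RefSeq (build GRCr8), as 250 bases before the annotated start. Nuclear genes of respiration are known to carry sites for NRF1 and for ETS-type factors, so 3 motifs were searched on both strands: the NRF1 core (any base allowed at 1 inner position, as the capitals in the printed sequences show), the ETS core CCGGAAG and, as a motif of other growth-regulated genes, the E-box CACGTG. The NRF1 core was found before 12 of the 78 genes (15.4%), against 9.03% of 9562 promoters of genes with a tested probe set and 3.75% of all 33469 promoters in the table. The ETS core was found before 21 (26.9%), against 15.4% and 7.27%, and the E-box before 5 (6.41%), against 8.29% and 5.59%. Among the 15 genes with a promoter that were called at 4 h or 12 h, 5 held the NRF1 core (Ndufaf4, Ndufa12, Sdha, Uqcrc1 and Atp5me), as did 7 of the other 63. The ETS core was found before 4 of these 15 (26.7%) and 17 of the 63 (27.0%), and the E-box before 0 of the 15 and 5 of the 63. A match describes letters and is not a measured site. The 170 bases before the start are shown, 5′ to 3′, for 4 genes picked because they hold the NRF1 core: Ndufaf4, which rose at 4 h, and Ndufa12, Uqcrc1 and Atp5me, which rose at 12 h with an effect that differed between times. Ndufaf8 and Atp5mf changed in the same way as these 3 and are not printed, and neither was found to hold the core. Capitals mark the NRF1 core on either strand.
Ndufaf4 (chr5:43401625-43401794, plus strand): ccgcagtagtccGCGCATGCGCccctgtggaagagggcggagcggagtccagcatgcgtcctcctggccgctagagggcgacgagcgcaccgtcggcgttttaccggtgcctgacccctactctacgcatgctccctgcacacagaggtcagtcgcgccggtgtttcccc
Ndufa12 (chr7:30658146-30658315, plus strand): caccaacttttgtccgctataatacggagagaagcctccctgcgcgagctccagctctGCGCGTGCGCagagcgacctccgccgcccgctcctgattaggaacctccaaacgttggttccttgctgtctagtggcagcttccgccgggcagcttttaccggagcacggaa
Uqcrc1 (chr8:118468053-118468222, plus strand): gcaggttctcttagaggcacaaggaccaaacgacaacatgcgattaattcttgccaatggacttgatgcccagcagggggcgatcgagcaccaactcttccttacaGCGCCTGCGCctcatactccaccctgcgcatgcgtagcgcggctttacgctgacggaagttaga
Atp5me (chr14:1464690-1464859, plus strand): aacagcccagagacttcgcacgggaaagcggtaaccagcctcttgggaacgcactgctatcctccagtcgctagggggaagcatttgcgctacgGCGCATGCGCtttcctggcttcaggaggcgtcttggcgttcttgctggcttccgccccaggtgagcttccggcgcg
The core began 158 bases before the start in Ndufaf4, 112 in Ndufa12, 64 in Uqcrc1 and 76 in Atp5me.

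The assembly factors of complex I held the largest change at 4 h among the 81 genes. Ndufaf4, which helps to build the arm of complex I that binds ubiquinone, had signals of 8093, 7582 and 6978 on the EGF arrays at 4 h and 2363, 2467 and 3071 on the controls. The groups did not overlap. The log2 fold change was 1.52 ± 0.16 (SE, 2.86-fold, adjusted p = 1.65e-05). At 12 h the signals were 3593, 3245 and 2586 with EGF and 3402, 3264 and 2551 in controls, which overlapped, with a log2 fold change of 0.03 ± 0.16 and a 95% interval of -0.32 to 0.38. The difference between the effects, 12 h minus 4 h, was -1.49 ± 0.23 (adjusted p = 0.00125). The 4 h value ran from 1.445 to 1.688 over 25 alternatives and passed in each of them.

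Ndufaf7, a methyltransferase that modifies a core subunit during assembly, had 700, 443.5 and 724 with EGF at 4 h and 1014, 1065 and 1190 in controls. It fell by 0.81 ± 0.23 (SE, log2 scale, adjusted p = 0.0176), without overlap. Its second probe set gave -0.51 ± 0.26 (adjusted p = 0.165), and the call was lost without the second EGF array (-0.59, adjusted p = 0.088) or the third control (-0.75, adjusted p = 0.0602). At 12 h its log2 fold change was -0.0045 ± 0.23.
Ndufaf8, another assembly factor, had 1946, 2013 and 1913 with EGF at 12 h and 1531, 1431 and 1406 in controls, a log2 fold change of 0.42 ± 0.13 (adjusted p = 0.0191). At 4 h its EGF arrays lay below the controls, at 2058, 1841 and 2081 against 2223, 2394 and 2514, but the value of -0.25 ± 0.13 did not pass (adjusted p = 0.162). The difference between times was 0.67 ± 0.18 (adjusted p = 0.0276, and 0.0545 with the replicate block). The 12 h call was lost without the second EGF array (adjusted p = 0.0528) or the second or the third control (0.0593 and 0.0612). It was also lost with the 12 h arrays alone (0.0651). Ndufaf1, Ndufaf3 and Ndufaf5 did not pass at either time, with log2 fold changes between -0.42 and 0.33.

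None of the 34 complex I subunits passed at 4 h, where 27.8% of all tested probe sets did. The range was -0.65 to 0.23, and 31 values were negative (91.2%, against 61.4% of all). All 6 core subunits measured on a single-symbol probe set were negative at 4 h. Ndufs1, which carries iron-sulfur clusters, had 3572, 4051 and 4511 with EGF at 4 h and 4783, 4697 and 6664 in controls, a log2 fold change of -0.40 ± 0.20 (adjusted p = 0.16). Ndufv1, which binds NADH, had 5530, 5420 and 4760 against 6643, 6277 and 5689, a log2 fold change of -0.24 ± 0.12 (adjusted p = 0.15). For both genes the EGF arrays lay below all controls at 4 h, and neither passed. At 12 h the groups overlapped, with -0.19 ± 0.20 for Ndufs1 and 0.15 ± 0.12 for Ndufv1.

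At 12 h, 1 complex I subunit was higher and 1 lower (15.3% and 20.8% of all tested probe sets), and 23 of 34 values were positive (67.6%, against 46.4% of all). Ndufa12, an accessory subunit of the arm that faces the matrix, had 9305, 10139 and 9526 with EGF and 6887, 6260 and 6784 in controls, a log2 fold change of 0.54 ± 0.13 (adjusted p = 0.00556). The groups stood apart, whereas at 4 h they overlapped (-0.13 ± 0.13), and the difference between times was 0.66 ± 0.18 (adjusted p = 0.0337). The 12 h call of Ndufa12 held under all 25 alternatives. Ndufc1, an accessory subunit of the membrane arm, had 3893, 3904 and 3011 with EGF and 5822, 4978 and 6435 in controls, a log2 fold change of -0.67 ± 0.18 (adjusted p = 0.0105). Every EGF array was below every control. Over 25 alternatives the value of Ndufc1 ran from -0.77 to -0.41, and its call held in 23. Ndufc1 was not called with median centring and the replicate 3 EGF array at 12 h left out (adjusted p = 0.108). Without the third control its value was -0.59 (adjusted p = 0.0514).

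Several complex I genes had arrays of the same group that disagreed at 12 h and were not called in the main fit. Ndufb8, an accessory subunit, had 168.1, 362.7 and 1134 with EGF and 37.0, 284.8 and 189.2 in controls, so its controls disagreed as well. Ndufa5, another accessory subunit, had 277.7, 1002 and 4050 with EGF and 313.5, 485 and 487.5 in controls. Their log2 fold changes were 1.47 ± 0.60 and 1.28 ± 0.62 and did not pass (adjusted p = 0.0714 and 0.127). Ndufb8 was called higher in some alternatives, among them the fits without the second control or the first EGF array at 12 h. Ndufa5 was called higher without the first EGF array. The third EGF array, with the low actin ratio, was the high one in both.

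Of the 4 complex II subunits, 1 was lower at 4 h, where 16.5% of all tested probe sets were. None passed at 12 h, where 36.1% of all did. All 4 values were negative at 4 h, as were 61.4% of all. Sdha, the flavoprotein that oxidises succinate in both the citrate cycle and the respiratory chain, had 7644, 7121 and 7926 with EGF at 4 h and 10827, 10799 and 11332 in controls. The groups were well separated, with a log2 fold change of -0.54 ± 0.15 (adjusted p = 0.0168). The call was lost with arrays centred on their medians (-0.43, adjusted p = 0.0859), without the second EGF array (-0.50, adjusted p = 0.0665), without the third control (-0.52, adjusted p = 0.0507) and without both replicate 3 arrays at 4 h (-0.55, adjusted p = 0.0712). At 12 h the signals were 13594, 13862 and 9431 with EGF and 17121, 13487 and 16339 in controls, and the value of -0.36 ± 0.15 did not pass (adjusted p = 0.0779). Sdha was called lower at 12 h in 3 of 25 alternatives. These were quantile normalization and the fits without the first or the second EGF array at 12 h. In each of them it was also called lower at 4 h. Sdhb, the iron-sulfur subunit, had log2 fold changes of -0.16 ± 0.25 at 4 h and 0.33 ± 0.25 at 12 h and overlapped at both times. At 12 h it had 3791, 5524 and 9870 with EGF and 4161, 4971 and 4979 in controls, and without the third EGF array the value was -0.03. The membrane anchor Sdhd was at -0.21 ± 0.11 and 0.0028 ± 0.11, with a 95% interval of -0.23 to 0.24 at 12 h.

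Complex III had 3 of 8 subunits higher at 12 h, where 15.3% of all tested probe sets were, and none called at 4 h, where 27.8% of all were. Uqcrc1, a core protein of the complex, had 9741, 11797 and 13244 with EGF at 12 h and 7348, 6954 and 6269 in controls. The lowest EGF array exceeded the highest control, and the log2 fold change was 0.75 ± 0.14 (1.68-fold, adjusted p = 0.00101). At 4 h it was 0.05 ± 0.14, and the difference between times was 0.70 ± 0.20 (adjusted p = 0.0375, and 0.0699 with the replicate block). Cyc1, the cytochrome c1 haem subunit, had 24820, 25668 and 17107 with EGF at 12 h and 15028, 14405 and 16234 in controls, a rise of 0.54 ± 0.15 on the log2 scale (adjusted p = 0.0106). Cyc1 on the EGF arrays was also above the controls at 4 h, at 10970, 11815 and 12399 against 9609, 10711 and 10020, with 0.21 ± 0.15 (adjusted p = 0.316). Both genes passed at 12 h under all 25 alternatives.
Uqcrfs1, the Rieske iron-sulfur protein, had 7321, 8480 and 18903 with EGF at 12 h and 5597, 5694 and 6193 in controls. The log2 fold change was 0.85 ± 0.26 (adjusted p = 0.0195) with the third EGF array and 0.43 (adjusted p = 0.00983) without it. The call was lost without the first control (0.83, adjusted p = 0.0601) or the second (0.84, adjusted p = 0.056). With the 12 h arrays alone Uqcrfs1 did not pass either (adjusted p = 0.06985). The remaining complex III genes ran from -0.17 to 0.40 at 12 h.

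**Figure D4:**
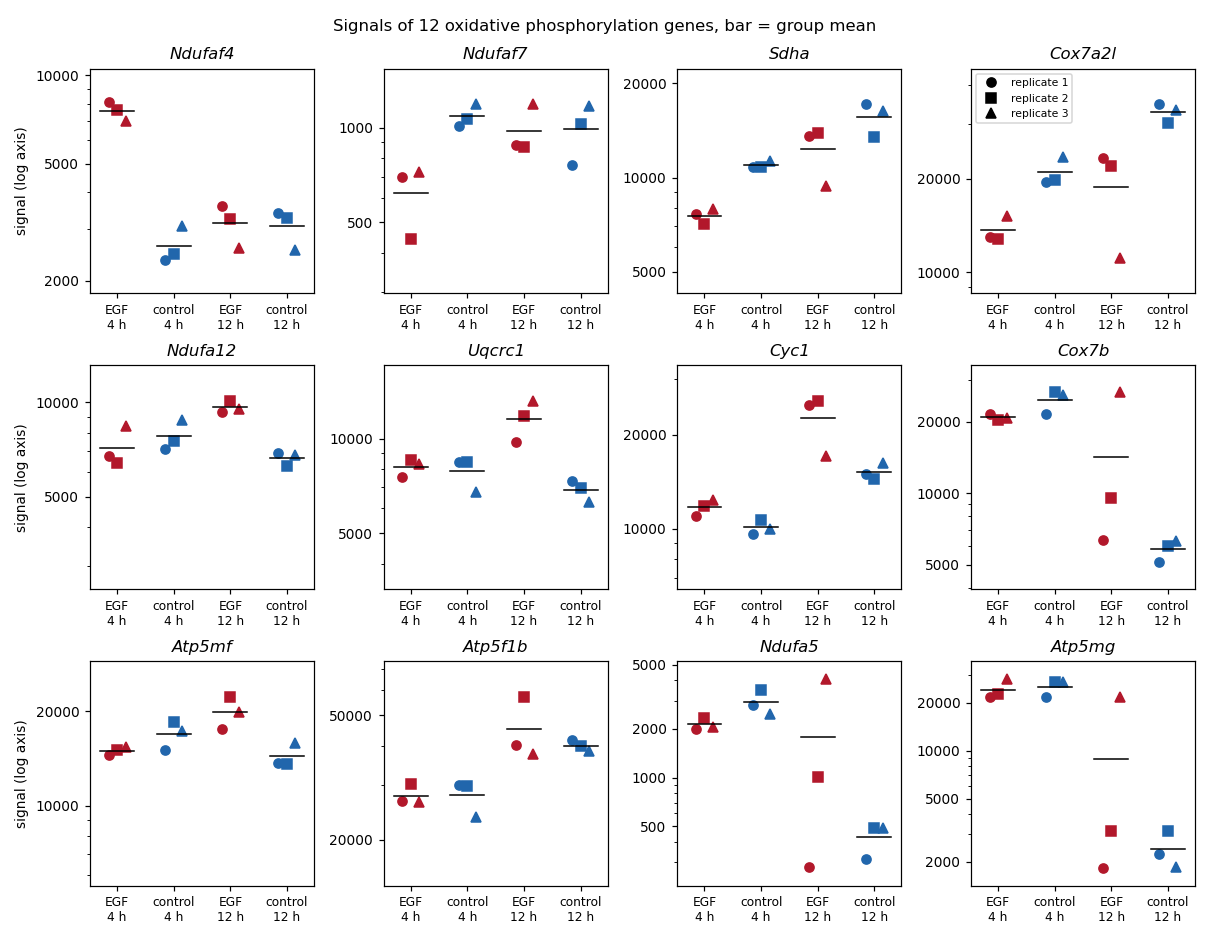
Signals on each array for 12 genes on log axes, with EGF (red) left of control (blue) at 4 h and then at 12 h; symbols are replicates and bars are group means. Ndufaf4 separates at 4 h, Ndufa12, Uqcrc1, Cyc1 and Atp5mf at 12 h, and for Cox7b, Ndufa5 and Atp5mg the third EGF array at 12 h (triangle) lies far above the other 2.

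In complex IV none of 11 subunits passed at 4 h (27.8% of all tested probe sets did), and 2 were higher at 12 h, a share near the 15.3% of all. Cox7b, a small accessory subunit, had 6375, 9571 and 26692 with EGF at 12 h and 5130, 6026 and 6276 in controls, a log2 fold change of 1.02 ± 0.36 (adjusted p = 0.0389). Without the third EGF array it was 0.43 (adjusted p = 0.0444), and the call was lost without the first, second or the third control (adjusted p = 0.115, 0.0799 and 0.0743). It was also lost, at an unchanged 1.02, without the first or second EGF array or the second control at 4 h (adjusted p = 0.0512, 0.0513 and 0.051), without the brightness filter (0.0502), without the intensity trend (0.0672), with the 12 h arrays alone (0.111) and without both replicate 3 arrays at 4 h (0.0658). Cox5b, a zinc-binding subunit, had 9812, 11772 and 14813 against 8636, 8575 and 9501, with 0.43 ± 0.15 (adjusted p = 0.0419). It passed in 11 of 25 alternatives and was 0.27 (adjusted p = 0.116) without the third EGF array. Cox5b also missed the threshold without the second EGF array at 12 h (adjusted p = 0.0725), without any single 12 h control (0.0638 to 0.116) and without any single 4 h control (0.0511 to 0.0558).
The regulatory subunit Cox4i1 had 33180, 33613 and 37857 with EGF at 4 h and 36419, 41618 and 36983 in controls, which overlapped. At 12 h it had 21210, 24452 and 38268 with EGF and 24148, 20999 and 23619 in controls. Its log2 fold changes were -0.14 ± 0.18 and 0.24 ± 0.18, and the 12 h value was -0.0067 without the third EGF array. Ndufa4, first described with complex I and now placed in complex IV, was at -0.17 ± 0.20 and 0.42 ± 0.20 (adjusted p = 0.594 and 0.121), with 0.12 at 12 h without that array. Cox6a1 was at -0.07 ± 0.15 and 0.34 ± 0.15 (0.18 without it), Cox8a at -0.19 ± 0.13 and -0.0025 ± 0.13, and Cox5a at -0.01 ± 0.29 and -0.26 ± 0.29. The muscle-type isoform Cox7a1 was dim, with 237.2, 283.5 and 278.2 with EGF at 4 h against 51.2, 218.7 and 311.4 in controls, and did not pass at either time.

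Cox7a2l, which joins complexes III and IV into supercomplexes and is no subunit of the complex IV monomer, was lower with EGF. It had 12943, 12833 and 15144 with EGF at 4 h and 19522, 19851 and 23367 in controls, a log2 fold change of -0.62 ± 0.22 (adjusted p = 0.0518). With the replicate number as a block the adjusted p was 0.0427. At 4 h only the replicate 3 arrays stood apart, so it is not shown that the other numbers pair the arrays. At 12 h it had 23232, 21878 and 11157 with EGF and 34643, 30219 and 33088 in controls, a log2 fold change of -0.87 ± 0.22 (1.83-fold lower, adjusted p = 0.0072). Every EGF array was below every control at both times. Without the third EGF array the 12 h value was -0.53 (adjusted p = 0.0032), and it passed under all 25 alternatives. The 4 h call was made in 11 of the 25, among them the fits without the first, second or the third EGF array at 12 h (adjusted p = 0.0332, 0.0454 and 0.000485).

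Complex V had no call at 4 h and 4 of 15 subunits higher at 12 h, where its median log2 fold change was 0.39, beside 0.08 for complex I, 0.17 for complex II, 0.23 for complex III, 0.24 for complex IV and -0.06 for all tested probe sets. Of all probe sets, 27.8% were called at 4 h and 15.3% were higher at 12 h. All 15 differences between times were positive. Atp5mf, subunit f of the membrane part, had 17582, 22251 and 19836 with EGF at 12 h and 13720, 13578 and 15849 in controls. The groups did not overlap and the log2 fold change was 0.46 ± 0.13 (adjusted p = 0.0106), called under all 25 alternatives. Atp5me, subunit e, which helps the synthase to form dimers, had 4083, 3947 and 5308 against 3423, 3139 and 2860, with 0.49 ± 0.14 (adjusted p = 0.017). Without the third control Atp5me was at 0.42 (adjusted p = 0.0722), and with the 12 h arrays alone it did not pass.
Atp5mk, a small membrane subunit, had 10469, 12461 and 26139 with EGF and 7978, 8582 and 8318 in controls, a log2 fold change of 0.86 ± 0.25 (adjusted p = 0.0162). It was 0.46 (adjusted p = 0.01) without the third EGF array and 0.83 (adjusted p = 0.0522) without the first control, and the call was also lost with the 12 h arrays alone (adjusted p = 0.05915). Atp5f1d, of the rotating stalk, had 4821, 6432 and 14989 against 4363, 4150 and 3985, with 0.89 ± 0.31 (adjusted p = 0.0401). Without the third EGF array Atp5f1d was at 0.42 (adjusted p = 0.0918), and without the first, second or the third control its adjusted p was 0.0811, 0.0909 and 0.103. It was also lost, at an unchanged 0.89, without the first or second EGF array or the first control at 4 h (adjusted p = 0.0528, 0.0512 and 0.051), without the brightness filter (0.0512), without the intensity trend (0.0685) and with the 12 h arrays alone (0.0898).

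The catalytic head of the synthase did not pass at either time in the main fit. Atp5f1b, the catalytic beta subunit, had 26518, 30047 and 26389 with EGF at 4 h and 29985, 29728 and 23716 in controls, and 40112, 57173 and 37718 with EGF at 12 h and 41691, 39828 and 38350 in controls. The groups overlapped at both times, with log2 fold changes of -0.0026 ± 0.16 and 0.15 ± 0.16 (0.26 without the third EGF array). Atp5f1a, the alpha subunit, was at -0.17 ± 0.11 and 0.13 ± 0.11. Atp5mc3, the member of the c-ring isoform set measured on a single-symbol probe set, was at 0.12 ± 0.16 and 0.15 ± 0.16. At 12 h Atp5f1a was called higher in 2 of 25 alternatives, and Atp5f1b and Atp5mc3 in 1 each. These were fits with median centring in which the third EGF array had no weight or was left out. The inhibitor Atp5if1 had 9488, 9254 and 6625 with EGF at 12 h and 6534, 6691 and 7270 in controls, a log2 fold change of 0.29 ± 0.16 (adjusted p = 0.168). Without the third EGF array, the low one here, it was 0.46 (adjusted p = 0.0131).

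The effect of EGF differed between 12 h and 4 h for 6 of the 81 genes (7.41%), against 11.6% of all tested probe sets. The 2 times were separate experiments, and the actin ratio was higher on all 12 h arrays but the third EGF array. Time therefore cannot be told apart from experiment or RNA quality in these differences. Ndufa12, Ndufaf8, Uqcrc1, Atp5me and Atp5mf had a larger effect at 12 h (6.17%, against 5.45% of all) and Ndufaf4 a smaller one (1.23%, against 6.11%). With the replicate number as a block, Ndufa12, Atp5mf and Ndufaf4 kept their calls (adjusted p = 0.0309, 0.046 and 0.00278), and Ndufaf8, Atp5me and Uqcrc1 did not (0.0545, 0.0569 and 0.0699). The median difference over the 81 genes was 0.35, beside 0.05 for all tested probe sets, and 72 were positive (88.9%, against 53.2%). For 47 genes the value was negative at 4 h and positive at 12 h. The count of 5 larger effects rested on single arrays: it was 0 without the first or second EGF array or the second control at 4 h, or without the second control at 12 h. It was 1 without the third control at 4 h, the second EGF array at 12 h or the third control at 12 h, 2 without the first control at 12 h, 10 without the third EGF array and 16 without the first EGF array at 12 h. The call for Ndufaf4 held in all of them. Without the first EGF array at 12 h, 21% of the genes were called in either direction for the difference, against 15.5% of all.

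The third EGF array at 12 h set the spread of many of these genes. On it, 16 of the 81 genes (19.8%, against 12.2% of all tested probe sets) had over 2 times the mean of the other 2 EGF arrays, and 2 genes had under that mean by as much. Atp5mg, subunit g of the synthase, had 1841, 3113 and 21649 with EGF at 12 h and 2239, 3108 and 1851 in controls, while at 4 h it had 21590, 22741 and 28088 with EGF and 21852, 26849 and 27070 in controls. Its signal on the third EGF array was thus at the 4 h level. For 12 genes (14.8%, against 15.2% of all) the 12 h controls had under 50% of the 4 h controls' mean, and all 12 were among the 16. Across the 81 genes, the log2 ratio of the third to the other EGF arrays and that of 4 h to 12 h controls had a Pearson r of 0.92 and a Spearman rho of 0.90, against a Pearson r of 0.64 over all tested probe sets. This is a description across genes, which are not independent replicates, and no array enters both ratios. Without that array, the 12 h values of other named genes that did not pass also moved: Ndufs1 was at 0.06 and Cox5a at 0.13, both with the sign turned, Ndufv1 at 0.09, Sdha at -0.18, Cox8a at -0.11, Atp5f1a at 0.20 and Atp5mc3 at 0.28, and none of these passed. The actin ratio moved with the same arrays, and its part in these values was not tested.

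**Figure D5:**
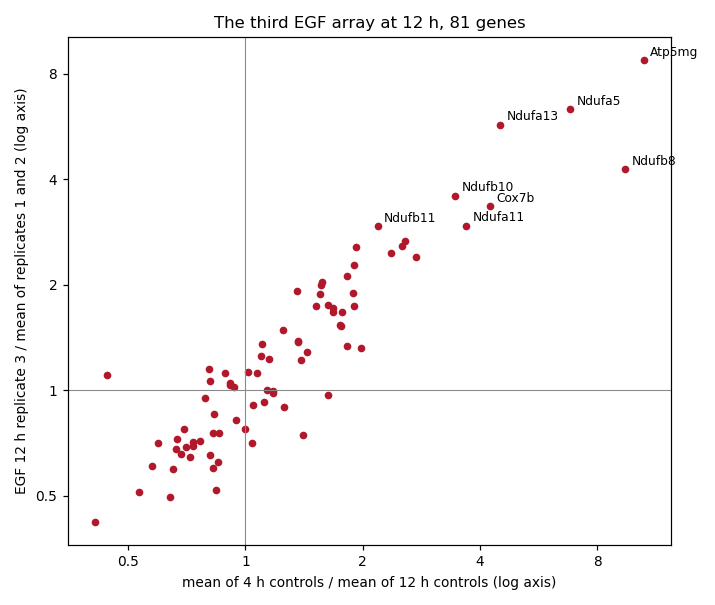
For each of the 81 genes, the third EGF array at 12 h over the mean of the other 2 EGF arrays (vertical, log axis) against the mean of the 4 h controls over that of the 12 h controls (horizontal, log axis). Genes with lower signals in the 12 h controls lie high on the third array, with Atp5mg, Ndufa5, Ndufa13 and Ndufb8 at the upper right.

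On deviations from the group means over the 12 arrays, the median pairwise r was 0.47 within complex IV, 0.30 within complex V, 0.18 within complex I, 0.10 within complex II and -0.07 within complex III, and 0.18 over all 81 genes, beside -0.02 with other tested probe sets. With members outside their own complex the median r was 0.24 for complex IV, 0.24 for complex V, 0.16 for complex I, 0.35 for complex II and 0.14 for complex III, so that genes of complexes II and III had lower values within their complex than outside it. The genes most like the rest by their median r were Ndufa6 (0.49), Sdhd (0.48) and Cox7c (0.48), and the least like were Cox7a2l (-0.35), Ndufs1 (-0.31) and Sdha (-0.30). These 12 points share the arrays that stand apart. The 2 mitochondrially encoded subunits that the platform names, COX1 and COX2, lie outside the naming rule and did not pass at either time: COX1 was at -0.08 ± 0.17 and 0.03 ± 0.17, and COX2 at -0.14 ± 0.34 and 0.23 ± 0.34. COX2 had 21014, 32927 and 72407 with EGF at 12 h and 27571, 35753 and 31430 in controls.

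Other genes of mitochondrial energy metabolism were read on the same arrays, against the same backgrounds of 27.8% at 4 h and 36.1% at 12 h. Of 22 genes of pyruvate dehydrogenase and the citrate cycle, 1 was higher and 7 lower at 4 h, and 6 higher and 7 lower at 12 h. Pdp1, the phosphatase that activates pyruvate dehydrogenase, had 19781, 19682 and 21330 with EGF at 4 h and 2655, 2538 and 3007 in controls (log2 fold change 2.88 ± 0.15, adjusted p = 1.81e-08), and 1.63 ± 0.15 at 12 h. Pdk2, a kinase that inactivates the same enzyme, had 650, 610.8 and 500.4 against 2101, 1660 and 1644 (-1.58 ± 0.16, adjusted p = 9.56e-06), and -0.82 ± 0.16 at 12 h. Both moved with no overlap of the arrays. Of 26 genes of mitochondrial import and folding, 9 were higher and 2 lower at 4 h, and 14 higher and 0 lower at 12 h. They included the import chaperone Timm10 (1.40 ± 0.16 at 4 h) and the matrix chaperones Hspa9 and Hspd1 (0.74 ± 0.11 and 0.78 ± 0.12 at 12 h).
Of 33 genes listed as assembly factors of the complexes outside the Ndufaf names, 1 was higher and 8 lower at 4 h, and 3 higher and 12 lower at 12 h, with the copper chaperone Cox17 at 1.01 ± 0.16 and Sco1 at -0.88 ± 0.14 at 12 h. Of 20 electron carriers and transporters, 1 was higher and 3 lower at 4 h, and 2 higher and 3 lower at 12 h. Among these, the ADP/ATP carrier Slc25a5 had 25743, 33772 and 33431 with EGF at 12 h and 12839, 11396 and 12186 in controls (1.34 ± 0.14, adjusted p = 9.01e-06), and the ubiquinone synthesis factor Coq8a fell by 2.54 ± 0.31 at 12 h. Of 17 regulators of mitochondrial transcription and biogenesis, 2 were higher at 4 h, the coactivator Pprc1 (1.11 ± 0.18, adjusted p = 0.000407) and the nuclear receptor Esrra (0.80 ± 0.18, adjusted p = 0.00554). At 12 h 1 of them was higher and 2 lower.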

How the data were processed

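RNA from primary cultures of rat optic nerve head astrocytes was measured on 12 Affymetrix arrays, in 4 groups of 3, with group and replicate number read from the sample titles, since all descriptions read as control. The authors deposited linear intensity values per probe set, computed by MAS5 per the submitters' processing notes; its version is not given in the sources used here. Over arrays, the 2% trimmed means lay between 1500.46 and 1500.56, so no rescaling was done. Precision is limited by how few arrays there are.

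The 57 control probe sets and 12417 with a mean signal under the 40th percentile (215) were left out, and 18625 were tested. Values were taken as log2(signal + 24.4), the offset being the 10th percentile of all signals, so fold changes of dim genes are understated. Group means over all 12 arrays were fitted in R 4.3.3 by limma 3.58.1, with an intensity trend and 8 residual degrees of freedom, two-sided, with Benjamini-Hochberg adjustment over all tested probe sets and a threshold of 0.05. The fit was run on simulated data with independent noise and without the array differences described above. That run checks the code and lends no support to these results. Figures were drawn with matplotlib 3.10.9.

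Symbols came from the platform annotation, and all 87 gene identifiers matched the current gene table. For 7 probe sets with several symbols, 1 of which matched, no gene was named. Of the 87 genes, 9 had several probe sets, and 6 of these had a second tested one. Genes named with values were, per complex and time, up to 3 in each direction with the smallest p among those past the threshold without overlap of arrays, fixed core subunits and isoform sets, up to 3 in each direction for the difference between times, and up to 3 per further list. Ndufa5, Ndufb8, Atp5mg, Atp5f1d, Sdhd, COX1, COX2 and the genes of the correlation paragraph were named after their values were seen. The genes and lists were chosen with earlier results of these data known.

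Same-numbered EGF and control arrays deviated together at 4 h (r of 0.12, 0.15 and 0.38 over all tested probe sets) and not at 12 h (0.08, -0.11 and -0.10), so by a limit of 0.1 the numbers were taken to pair the 4 h arrays only. At 4 h, EGF 1 with control 2 and EGF 2 with control 1 correlated about as much (0.14 each), and those 4 arrays with the other group's replicate 3 at -0.25 to -0.20, so only replicate 3 stood apart. Alternatives were another offset, no filter or a stricter one, median centring, quantile normalization, no intensity trend, separate fits per time, replicate and array-set blocks, the next probe set of a gene, and leaving out each array. For genes without a second tested probe set, the next-probe-set fit repeats the main fit.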

Additional observations from a re-analysis of the deposited data

Results flagged for a closer look

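For 6 genes the effect of EGF differed between 12 h and 4 h by the interaction term of the limma fit (adjusted p under 0.05). Time cannot be told apart from experiment or RNA quality here. The log2 difference, 12 h minus 4 h, was -1.488 for Ndufaf4, which was higher with EGF at 4 h and not at 12 h. It was 0.7353 for Atp5me, 0.6968 for Uqcrc1, 0.6728 for Ndufaf8, 0.6634 for Ndufa12 and 0.6369 for Atp5mf, which passed at 12 h and not at 4 h. The difference of Ndufaf4 passed in all 24 alternatives that give one, while those of Atp5me, Ndufaf8, Ndufa12, Atp5mf and Uqcrc1 passed in 16, 15, 14, 13 and 11 of the 24.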

How the results depend on the processing

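The rise of Ndufaf4 at 4 h and the 12 h calls of Ndufa12, Cyc1, Uqcrc1, Atp5mf and Cox7a2l held under all 25 alternatives. Not all 25 could change them. Each of these genes has 1 probe set, so the fit with the next probe set repeats the main fit for it. Leaving out an array of the other time keeps the fold change and moves only the shared spread. No named gene was called in opposite directions; a sign change of a value that passed neither way was not counted. At 4 h, where 1 gene was higher and 2 lower, the number lower was 4 with the stricter filter, 1 with median centring, 6 with quantile normalization, 11 with separate fits per time, 20 with the array set as a block, 0 without both replicate 3 arrays at 4 h and 1 with the second brightest probe set. At 12 h, where 11 were higher and 2 lower, 22 were higher with median centring, 4 with separate fits and 8 each without the filter or the intensity trend, both of which ended the calls of Cox5b, Cox7b and Atp5f1d, and the number lower was 5 with quantile normalization and 6 with the set block. For the difference, with 5 higher, the number was 2 without a filter, 3 with median centring, 1 without the trend, 2 with the replicate block, 14 with the set block and 3 without both replicate 3 arrays at 4 h. The share of all tested probe sets called in either direction moved too. With the set block it was 43.3% at 4 h, 42.7% at 12 h and 22% for the difference. Of the genes, 25.9%, 25.9% and 18.5% were called there. At 4 h it was 27.9% with quantile normalization (8.64% of the genes) and 34.5% with separate fits (14.8%). At 12 h it was 35% with median centring (29.6% of the genes). The set block leaves the third EGF array at 12 h no weight, since it is alone in its set. Another 2 combinations were chosen after seeing the data. The set block with median centring gave 3 higher and 8 lower at 4 h, 27 higher at 12 h and 12 for the difference. At 12 h it called 37% of the genes in either direction, against 41.9% of all tested probe sets. Median centring without the third EGF array at 12 h gave 2 higher and 4 lower at 4 h, 19 higher and 1 lower at 12 h and 10 for the difference. At 12 h it called 24.7% of the genes, against 36.1% of all. The 4 h median of -0.20 was -0.09281 in each fit with median centring. Among all called probe sets, median centring moved the higher share to 53.1% (40.8% without it) at 4 h and 52.6% (42.3%) at 12 h. The cause of these changes was not tested.

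Leaving out 1 array at a time gave 0 to 12 lower at 4 h, 6 to 24 higher and 1 to 5 lower at 12 h, and 0 to 16 larger and 1 smaller effects for the difference. The medians ran from -0.2368 to -0.1469 at 4 h, 0.1187 to 0.2619 at 12 h and 0.2983 to 0.4614 for the difference. With the replicate number as a block, 1 gene was higher and 3 lower at 4 h, where Cox7a2l was added, and 15 were higher and 2 lower at 12 h, where the numbers do not pair the arrays. At an unadjusted p under 0.05, 12 genes passed at 4 h and 26 at 12 h. With 3 arrays a group, changes well under 2-fold may be missed, and no detection calls were used to set a floor of signal over background.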
